A study of Mus musculus with 30 samples.

Results

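The genes described here are the phase II conjugation enzymes of mouse liver: the UDP-glucuronosyltransferases (Ugt), the glutathione S-transferases (Gst) and the sulfotransferases (Sult). They were chosen by symbol alone, as every row of the expression table named Ugt1, Ugt2 or Ugt3, Gst of the alpha, kappa, mu, pi, theta, omega or zeta class, or Sult, each followed by a letter where the family uses one and a number. The rule found 52 of the 29117 genes in the table, 17 Ugt, 21 Gst and 14 Sult. Of these, 43 (15 Ugt, 20 Gst and 8 Sult) reached 1 FPKM (a level corrected for transcript length and for the number of fragments sequenced) in at least 3 of 30 libraries and were tested. The other 9, Gsto2, Sult2a1, Sult2a2, Sult2a5, Sult3a1, Sult4a1, Sult6b1, Ugt1a8 and Ugt2a1, did not. Of these 9, Ugt1a8 and Ugt2a1 each passed 1 FPKM in a single library, and the other 7 stayed at or under 0.341 FPKM in every library.

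Conjugation enzymes attach a water-soluble group to drugs, hormones, bile pigments and reactive intermediates, so that the products can leave the hepatocyte in bile or blood. Ugt enzymes transfer glucuronic acid from UDP-glucuronate inside the endoplasmic reticulum, Sult enzymes transfer sulfate from PAPS in the cytosol, and Gst enzymes join glutathione to electrophiles. The genes lie in clusters of close copies, many respond to the xenobiotic sensors AHR, CAR, PXR and NRF2, and several are expressed at different levels in male and female mouse liver.

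The labels used here do not give the sex of the animals, which were C57BL/6J mice of 10 weeks. After a fast of 12 to 16 h they received an intraperitoneal injection, either human insulin (0.7 U/kg) or PBS, a buffered saline that served as control. Poly(A) RNA of the left liver lobe was sequenced at 5 sampling points within 4 h, with 3 libraries for each treatment and point, 30 in all. The points are numbered in the labels without minutes, and no order in time is assumed here. Values below are given in the order of replicate number. The insulin libraries were on lanes 1 and 2 (6 and 9 libraries) and the PBS libraries on lanes 3, 4 and 5 (5 each), so no lane held both treatments, and an effect of lane and one of treatment cannot be told apart.

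The libraries were alike in breadth, with 11345 to 12402 genes at 1 FPKM or more and a correlation of 0.966 to 0.983 between libraries of the same group. Read depth could not be recovered from the FPKM values. All 7 hepatocyte markers were expressed, with a summed level of 35020 to 49800 FPKM, and 5 lymphocyte markers summed to at most 1.87 FPKM. Over all 13589 genes tested, the median difference between insulin and PBS on the log2(FPKM + 1) scale was -0.06, -0.12, -0.14, -0.14 and -0.17 at points 1 to 5. Scaling each library by its median ratio to the others brought these medians to within 0.014 of 0, so a member's difference is also given relative to that shift where it matters. In whole tissue, fewer cells of a type and less RNA per cell cannot be told apart.

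One PBS library stood apart from the rest: replicate 2 of PBS at point 5. It held the highest value of all 30 libraries for 11 of the 43 tested members and the lowest for 7, 18 in all, while the library with the next most such extremes held 9. All 6 genes of a list of male-biased liver genes were lowest in it (Mup20, a major urinary protein, at 1801 FPKM against 2768 to 5776 elsewhere), and 6 of 7 female-biased genes were highest in it (Cyp2b9 at 14.6 FPKM against at most 0.598 elsewhere). Its sex-linked genes stayed with those of the other libraries: Xist, expressed from the inactive X chromosome, was at 0.00199 FPKM (at most 0.0481 elsewhere), and the Y-linked Ddx3y, Eif2s3y and Uty at 18.5, 17.3 and 3.85 FPKM were inside the range of the others, while Kdm5d, at 3.62 FPKM against 1.05 to 3.08, was the highest. Calls and counts of members and of pathway lists at point 5 are given with and without it below. What sets this library apart was not tested.

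The 5 insulin libraries of replicate 1 also stood apart, in the insulin arm alone. Malat1, a nuclear long RNA, was at 74.0 to 144 FPKM in them and at 25.6 to 49.4 FPKM in the other 25 libraries, and the small RNA Rmrp was at 12.3 to 17.6 FPKM against 0.306 to 7.23. In the PBS libraries of replicate 1 these were at 32.5 to 39.0 and 0.948 to 3.20 FPKM. Both come from a list of RNA quality genes whose other rows did not stand apart in this way. A second Rmrp row was at 0 FPKM in the 5 libraries and at most 1.35 elsewhere. For mt-Nd1, mt-Co1, mt-Cytb and Neat1, 0 of the 5 lay above all other libraries, and for Rpph1 1 did. Deviations from the group means had a median correlation of 0.216 among the 5, against -0.0192 to 0.087 for the other numbers of either arm. Calls that ended without them are named below, and what sets them apart was not tested.

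The promoters below are shown because the genes that share them, Ugt2b5, Ugt2b37 and Ugt2b38, also share transcript sequence and were called together in the contrast averaged over points. They are the 250 bases upstream of the start of transcription, from RefSeq on GRCm38.p6, at chr5:87140341-87140590 for Ugt2b5, chr5:87254789-87255038 for Ugt2b37 and chr5:87424204-87424453 for Ugt2b38. All 3 are on the minus strand and written 5′ to 3′. Capitals mark the longest run without a mismatch that the promoter has in common with Ugt2b5 or, for Ugt2b5, with Ugt2b38.
Ugt2b5: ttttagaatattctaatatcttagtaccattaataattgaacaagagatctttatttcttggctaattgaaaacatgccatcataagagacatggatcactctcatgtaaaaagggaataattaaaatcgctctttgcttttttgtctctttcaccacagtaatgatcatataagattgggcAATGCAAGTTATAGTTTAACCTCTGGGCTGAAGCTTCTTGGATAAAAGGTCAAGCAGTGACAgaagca
Ugt2b38: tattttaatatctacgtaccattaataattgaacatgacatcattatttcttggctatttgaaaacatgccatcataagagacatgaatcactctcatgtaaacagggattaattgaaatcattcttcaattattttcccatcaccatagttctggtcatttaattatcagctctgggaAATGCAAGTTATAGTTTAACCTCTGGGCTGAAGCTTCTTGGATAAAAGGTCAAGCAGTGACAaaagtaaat
Ugt2b37: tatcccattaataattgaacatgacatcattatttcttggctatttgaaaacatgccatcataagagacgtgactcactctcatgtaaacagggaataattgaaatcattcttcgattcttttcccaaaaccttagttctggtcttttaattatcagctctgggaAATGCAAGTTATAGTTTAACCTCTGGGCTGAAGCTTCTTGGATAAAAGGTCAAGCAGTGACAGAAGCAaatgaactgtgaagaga
The run is 62 bases long between Ugt2b5 and Ugt2b38 and 68 bases long between Ugt2b5 and Ugt2b37. In Ugt2b5 it spans positions -68 to -7 relative to the start. The longest run that Ugt2b34 or Ugt2b35 shares with Ugt2b5 is 9 bases.

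RefSeq held a promoter for 45 of the 52 members, and motifs were searched on both strands over the 300 bases from 250 before to 50 after the start. The forkhead motif GTAAACA was found in 5 of 45 (11.1%, against 4.05% of 27025 genes): Sult1d1, Ugt1a2, Ugt2b35, Ugt2b37 and Ugt2b38. The C/EBP motif TTGCNNAA was in 10 of 45 (22.2%, against 12.2%). The AHR core GCGTG was in 10 of 45 (22.2%, against 35.2%). The antioxidant response element core TGACNNNGC, which NRF2 binds, was in 3 of 45 (Gsta3, Gstm5 and Gstm7), which is 6.67%, against 14% of all genes. The STAT5 motif TTCNNNGAA was in 3 of 45 (6.67%, against 9.55%), the HNF4 motif CAAAGTCCA in 1 of 45 (Sult1b1, 2.22% against 0.555%) and the direct repeat 4 motif in 0 of 45 (against 0.0148%). Sites of different motifs may overlap. These are matches of letters in a window.

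The members lie at 18 places in the genome (GRCm38, GENCODE M21). The largest cluster, chr5:86889767-87591594, holds 12 of them: the 9 Ugt2 genes and Sult1b1, Sult1d1 and Sult1e1. The 7 Gstm genes lie at chr3:107895821-108044894, the 6 Ugt1a members at chr1:88055388-88219004, 5 Sult2a genes at chr7:13623967-14494230, the 3 Gstp genes at chr19:4035407-4059569 and the 3 Gstt genes at chr10:75774115-75837424.

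Conjugation enzymes made up 0.901% of all FPKM on average. Over the 30 libraries the Gst genes summed to 3037 ± 420 FPKM (SD), the Ugt genes to 2009 ± 270.2 FPKM and the Sult genes to 781 ± 99.1 FPKM. The level was held by few genes: 16 of the 52 had a mean over 100 FPKM, and the first 5 in order, Gstp1, Gsta3, Gstm1, Gstp2 and Sult2a8, held 46.3% of the sum. Among Gst genes the highest means were those of Gstp1 (884 FPKM, a pi-class enzyme), Gsta3 (530 FPKM, alpha class) and Gstm1 (448 FPKM, mu class). Among Ugt genes they were those of Ugt2b5 (368 FPKM), Ugt2b36 (365 FPKM) and Ugt2b1 (284 FPKM), enzymes for steroids and xenobiotics. Among Sult genes they were those of Sult2a8 (406 FPKM, a bile acid sulfotransferase), Sult1a1 (263 FPKM, a phenol sulfotransferase) and Sult1d1 (92.9 FPKM, which acts on catecholamines and related amines). Ugt2b5 and Ugt2b36 differed by far less than their spread over libraries. At the other end, 10 members had a mean under 1 FPKM, among them Sult1e1, the estrogen sulfotransferase, at 0.625 FPKM.

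**Figure D1:**
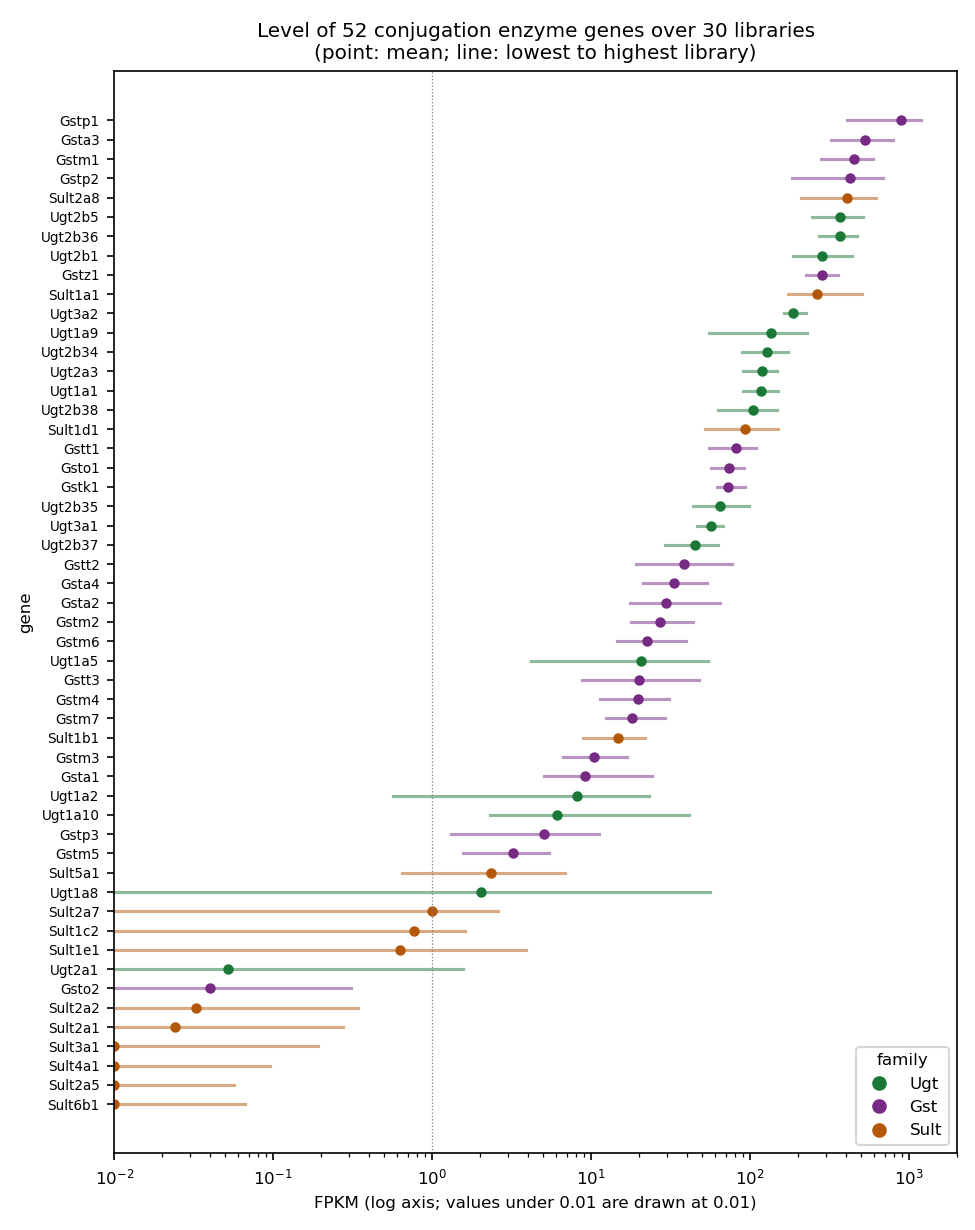
Mean FPKM (point, log axis) and range from the lowest to the highest of 30 libraries (line) for each of the 52 genes, coloured by family. Gstp1 had the highest mean, 884 FPKM, and 10 genes lay under 1 FPKM; Ugt1a2, Ugt1a5 and Ugt1a10 had the longest lines among the genes over 5 FPKM, with highest over lowest values of 40.4, 13.0 and 17.9.

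Spread between replicates differed among families. The median coefficient of variation within groups was 13.7% for the 8 tested Ugt2 genes, 9.33% for the 2 Ugt3a genes, 19.5% for the 20 Gst genes, 36.2% for the 8 Sult genes and 72.6% for the 5 tested Ugt1a genes, against 19.5% for all tested genes.

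Insulin and PBS were first compared at each point with limma, adjusting p-values over all 13589 genes. At point 1 the test called 0 of 43 members at an adjusted p below 0.05, and 2 had an unadjusted p below 0.05; of all genes, 0.00736% were called. Point 2 gave 1 of 43 members, Gstt2, which was lower, against 1.35% of all genes (0.618% higher and 0.736% lower). Point 3 gave 2 members, Gstt2 lower and Ugt2b34 higher, against 9.45% of all genes (2.19% higher and 7.26% lower). Point 4 gave 4 members, Gstt2 and Gstz1 lower and Ugt2b34 and Ugt2b35 higher, against 13.2% of all genes (2.82% higher and 10.4% lower). Point 5 gave 9 members, 6 Gst genes lower (Gstk1, Gstm1, Gstm4, Gstp3, Gstt2 and Gstz1) and 3 Ugt2 genes higher (Ugt2b5, Ugt2b34 and Ugt2b38), which is 20.9% of those tested against 19.1% of all genes. Members called higher there were 6.98% against 2.96%, and members called lower 14% against 16.1%. Without the insulin library of replicate 1 at each point, limma called 0, 1, 1, 2 and 2 members at points 1 to 5, against 0.0221%, 0.883%, 5.33%, 5.27% and 8.25% of all genes. Those left were Gstt2 at point 2, Ugt2b34 at points 3 and 4, Ugt2b35 at point 4, and Gstp3 and Gstz1 at point 5, where 1.96% of all genes were higher and 6.28% lower.

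Separation of the libraries was also counted. At point 1 the 3 insulin libraries lay above all PBS libraries for 0 of 43 members (2.99% of all genes) and below them for 2 (6.44%), 9.43% of all genes being apart either way. At point 2 they lay above for 4 (4.86% of all genes) and below for 4 (18.6%; 23.5% either way). At point 3 they lay above for 5 (7.65%) and below for 4 (27.8%; 35.5% either way). Point 4 had 11 members above (8.01%) and 3 below (24.3%; 32.4% either way). Point 5 had 7 above (6.42%) and 8 below (29%; 35.4% either way), and without PBS replicate 2 it had 11 above (12.8%) and 10 below (32.2%). From point 2 on, fewer members than genes at large lay below PBS by share, and more lay above.

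Averaged over the 5 points, 18 of 43 members were called, 41.9% against 45.5% of all genes, so the share called was near the background. The directions of those called went by family. Of the 8 that rose, 7 were Ugt2 genes (Ugt2a3, Ugt2b5, Ugt2b34, Ugt2b35, Ugt2b36, Ugt2b37 and Ugt2b38) and the other was Sult1d1. Of the 10 that fell, 9 were Gst genes (Gstk1, Gstm1, Gstm4, Gstm5, Gsto1, Gstp3, Gstt1, Gstt2 and Gstz1) and the other was Sult5a1. Those called higher were 18.6% of members against 7.89% of all genes, and those called lower were 23.3% against 37.6%. By family, 87.5% of the tested Ugt2 genes were called higher, far from the share of all genes. Of the tested Gst genes 45% were called lower, which is near the 37.6% of all genes. With libraries scaled by median ratio, 13 members rose and 4 fell (Gstp3, Gstt2, Gstz1 and Sult5a1). Those that rose were the same 7 Ugt2 genes and Sult1d1, joined by Gsta2, Sult2a8, Ugt2b1, Ugt3a1 and Ugt3a2. On that scale 20.2% of all genes were called higher and 20.2% lower. Gstk1, Gstm1, Gstm4, Gstm5, Gsto1 and Gstt1 were then not called, and the average difference of Gstk1 turned from -0.15 to 0.01. Without the 5 insulin libraries of replicate 1, limma called 16 members in the average, against 36.4% of all genes (9.9% higher and 26.5% lower). The same 7 Ugt2 genes and Sult1d1 rose, joined by Ugt1a9 and Ugt3a2 (adjusted p = 0.0439 and 0.0406). Gsto1, Gstp3, Gstt2, Gstz1 and Sult5a1 fell, joined by Ugt1a2 (adjusted p = 0.0253). Gstk1, Gstm1, Gstm4, Gstm5 and Gstt1 were then not called (adjusted p = 0.0626 to 0.204).

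**Figure D2:**
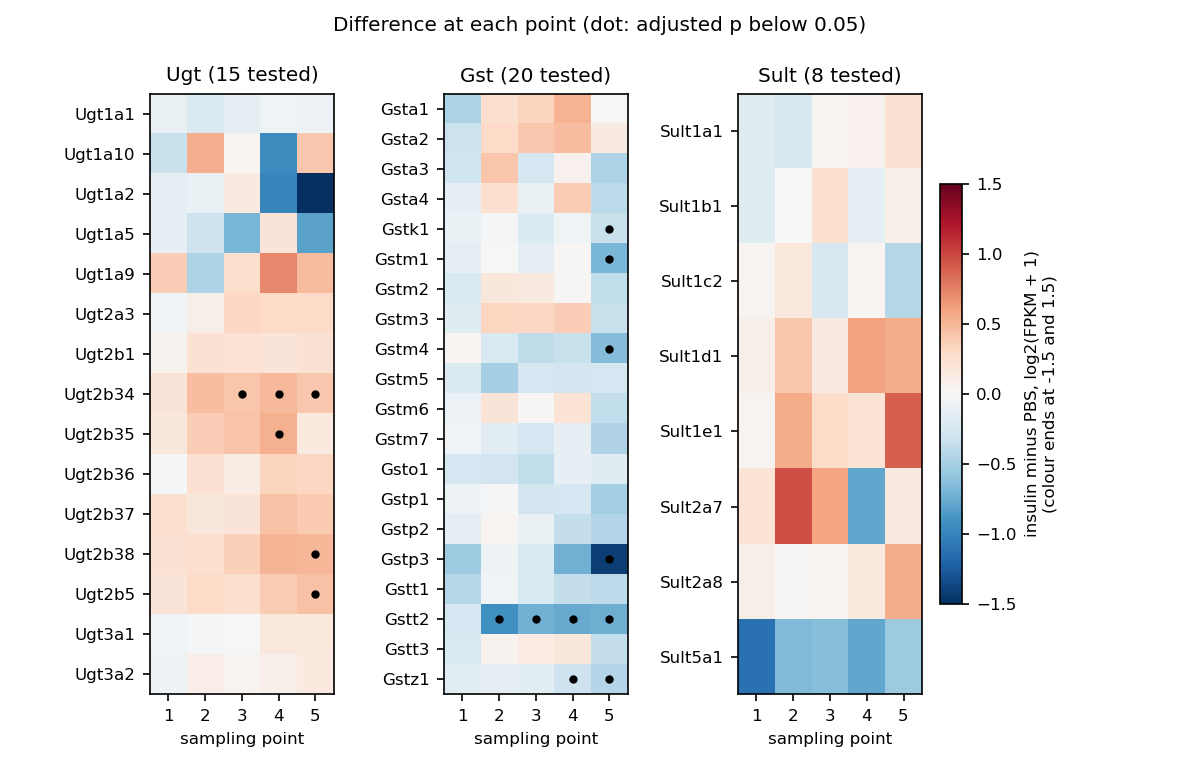
Difference between insulin and PBS (colour, log2(FPKM + 1) scale) for the 43 tested genes at the 5 sampling points, with a dot where limma's adjusted p was below 0.05. The 8 Ugt2 rows are positive at points 2 to 5 and 18 of 20 Gst rows are negative at point 5; with libraries scaled by median ratio the counts are 8 of 8 and 17 of 20.

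The Ugt2 genes encode glucuronosyltransferases for steroids, bile acids and drugs. All 8 tested had a positive difference at points 2, 3, 4 and 5, with medians of 0.24, 0.28, 0.41 and 0.35, while the median of all genes was negative. After scaling by median ratio the medians were 0.40, 0.45, 0.57 and 0.57, and 1, 3, 7 and 6 of the 8 were called higher, against 1.1%, 5.1%, 6.94% and 8.8% of all genes on that scale. At point 4 all 3 insulin libraries lay above all 3 PBS libraries for 7 of the 8, against 8.01% of all genes. Of the chromosome 5 cluster as a whole, Sult1b1, Sult1d1 and Sult1e1 included, all 11 tested genes were positive at points 3 and 5, also after scaling. With all libraries unscaled this did not hold at points 1, 2 and 4. At point 4 Sult1b1 was at 8.86, 10.8 and 12.1 FPKM with insulin and 11.7, 12.0 and 11.6 FPKM with PBS.

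Ugt2b34 (chr5:86889767-86906937, minus strand) was called higher at 3 points, more than any other member. In insulin libraries its FPKM was 137, 127, 153 (point 1), 135, 173, 154 (point 2), 125, 156, 156 (point 3), 140.2, 174, 161 (point 4), and 123, 126, 134 (point 5). In PBS libraries it was 142, 115, 108 (point 1), 126, 110.5, 97.6 (point 2), 105, 114, 104 (point 3), 119, 128, 93.8 (point 4), and 102, 88.7, 98.7 (point 5). At points 2 to 5 every insulin library lay above every PBS library of its point, and at point 1 they overlapped. The difference on the log2(FPKM + 1) scale was 0.46 ± 0.13 (SE) at point 2, which was not called (limma, adjusted p = 0.0802). It was 0.42 at point 3 (adjusted p = 0.0464), 0.48 at point 4 (0.0208) and 0.41 at point 5 (0.0351; 0.0741 without insulin replicate 1), each with limma. These 3 calls ended under 7, 3 and 7 of 14 alternatives (limma, adjusted p up to 0.146, 0.141 and 0.117). Averaged over the points the difference was 0.39 ± 0.06, with a mean of 145 ± 17.1 FPKM (SD, n = 15) in insulin and 110.2 ± 14.2 FPKM in PBS (limma, adjusted p = 2.17e-05). It shares little sequence with other genes, 1.44% of its 50-base stretches.

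Ugt2b35 (chr5:87000860-87013275, plus strand) was called at point 4. Under insulin it stood at 84.1, 65.8, 98.6 (point 1), 70.9, 87.2, 90.2 (point 2), 59.8, 60.1, 79.2 (point 3), 60.3, 82.9, 67.5 (point 4), and 50.6, 56.6, 60.8 (point 5). Under PBS it stood at 76.7, 68.3, 72.9 (point 1), 74.6, 57.6, 60.2 (point 2), 47.2, 49.0, 50.2 (point 3), 53.4, 45.2, 45.7 (point 4), and 51.0, 44.0, 56.3 (point 5). The groups did not overlap at points 3 and 4, where the insulin libraries were the higher, and overlapped at points 1, 2 and 5. The difference at point 4 was 0.53 ± 0.15 (limma, adjusted p = 0.0224), and averaged over the points it was 0.33 ± 0.07 (adjusted p = 0.000376). The level also differed among points within each treatment (limma F tests, adjusted p = 0.0431 for insulin and 0.0426 for PBS; calls that ended without PBS replicate 2 of point 5 for PBS, at 0.0564, and without the insulin libraries of replicate 1 for both, at 0.198 and 0.0521), from 82.8 ± 16.4 FPKM at point 1 to 56.0 ± 5.11 at point 5 in insulin and from 72.6 ± 4.22 at point 1 to 48.1 ± 4.57 at point 4 in PBS (SD, n = 3).

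Ugt2b5 (chr5:87124960-87140318, minus strand) had the highest mean of the Ugt genes. FPKM in the insulin group was 402, 384, 471 (point 1), 395, 474, 441 (point 2), 319, 417, 460.3 (point 3), 365, 509.9, 381 (point 4), and 334, 365, 396 (point 5). FPKM in the PBS group was 399, 375, 323 (point 1), 424, 343, 313 (point 2), 321, 358, 319.8 (point 3), 312, 313, 332 (point 4), and 277, 245, 282 (point 5). The insulin libraries were all above the PBS libraries at points 4 and 5 and overlapped with them at the other points. The difference was 0.44 ± 0.14 at point 5 (limma, adjusted p = 0.0322; 0.0523 without insulin replicate 1) and 0.31 ± 0.06 averaged over the points (adjusted p = 0.000451).

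Ugt2b38 (chr5:87409942-87424203, minus strand) moved with Ugt2b5, from which it cannot be fully separated: 37.4% of its 50-base stretches occur in other genes and 34.2% in Ugt2b5. Insulin libraries held 118, 109.7, 139.6 (point 1), 105, 139, 128 (point 2), 90.8, 122, 132 (point 3), 101, 148, 115 (point 4), and 95.6, 102, 126 (point 5) FPKM. PBS libraries held 117, 104, 92.8 (point 1), 131, 99.8, 85.0 (point 2), 80.3, 99.0, 86.4 (point 3), 80.9, 89.9, 80.7 (point 4), and 84.8, 63.0, 81.8 (point 5) FPKM. Again the groups were apart at points 4 and 5, with insulin higher. The difference was 0.51 ± 0.17 at point 4 (limma, adjusted p = 0.0512, not called), 0.49 ± 0.17 at point 5 (adjusted p = 0.0477; 0.0654 without insulin replicate 1) and 0.37 ± 0.08 averaged over the points (adjusted p = 0.000546).

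Ugt2b37 (chr5:87240493-87254804, minus strand), the third gene of the promoters shown, shares 15.2% of its 50-base stretches with Ugt2b5. With insulin it measured 45.2, 51.4, 61.0 (point 1), 44.6, 52.9, 53.1 (point 2), 36.1, 47.5, 57.3 (point 3), 41.6, 62.6, 50.7 (point 4), and 38.2, 44.8, 52.5 (point 5). With PBS it measured 46.5, 47.0, 38.6 (point 1), 57.6, 41.7, 36.5 (point 2), 39.9, 42.0, 39.1 (point 3), 34.8, 35.9, 41.3 (point 4), and 38.4, 28.9, 34.5 (point 5). The groups were apart at point 4 alone. Without scaling it was called in the averaged contrast only, at 0.29 ± 0.08 (limma, adjusted p = 0.00472), and this call ended without the insulin libraries of replicate 3 (adjusted p = 0.0577). After scaling by median ratio it was also called higher at points 4 and 5.

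Of the remaining Ugt2 genes, both of the following were called in the average: Ugt2a3, at 126 ± 12.8 FPKM in insulin and 111 ± 16.8 in PBS (SD, n = 15; difference 0.19, limma adjusted p = 0.00985), and Ugt2b36, at 389 ± 49.0 and 342 ± 48.2 FPKM (0.19, limma adjusted p = 0.0277). These calls ended under 2 and 4 of 13 alternatives (limma, adjusted p up to 0.142 and 0.225). Ugt2b1, the remaining tested gene, had a difference of 0.19 ± 0.10 that was not called (limma, adjusted p = 0.148). After scaling by median ratio Ugt2b1 was called higher in the average. Without replicate 2 of PBS at point 5, 0 of the 8 Ugt2 genes were called at that point by limma, against 3 with it, and 2 had an unadjusted p below 0.05. All 8 differences there stayed positive, at 0.06 to 0.38, and Ugt2b34, Ugt2b5 and Ugt2b38 were at 0.35, 0.38 and 0.36 (limma, adjusted p = 0.117, 0.109 and 0.196). In the average without that library the same 7 Ugt2 genes were called.

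Ugt3a1 and Ugt3a2 encode transferases that use other sugars than glucuronate, and lie on chromosome 15. They had the smallest spread between replicates of all families and were called in no contrast with all libraries, with largest differences of 0.16 at point 4 and 0.14 at point 5 (limma, adjusted p = 0.379 and 0.376). After scaling by median ratio both were called higher at point 5 (limma, adjusted p = 0.0382 and 0.0319) and in the average (0.00468 and 0.00173).

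The Gst genes encode the enzymes that detoxify electrophiles and peroxides with glutathione. At point 5, 18 of 20 had a negative difference, with a median of -0.40 against -0.17 for all genes, and after scaling by median ratio 17 of 20 with a median of -0.18. Their summed level at point 5 was 2174 ± 191 FPKM in insulin and 3121 ± 274 FPKM in PBS (SD, n = 3). At points 1 to 4 the insulin sums were 3049 ± 294, 2972 ± 157, 3026 ± 37.0 and 2943 ± 286 FPKM. The PBS sums there were 3457 ± 608, 2893 ± 215, 3457 ± 179 and 3274 ± 64.3 FPKM, so the mean sum was lower with insulin at every point but point 2. Without PBS replicate 2, again 18 of 20 were negative at point 5, with a median of -0.25 against -0.14 for all genes, and the remaining PBS sums were 3098 and 3407 FPKM.

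Gstt2 (chr10:75831114-75837424, minus strand), a theta-class transferase, was lower with insulin at 4 of the 5 points. The insulin libraries had 21.4, 27.5, 31.5 (point 1), 24.5, 19.0, 24.5 (point 2), 20.0, 28.4, 29.7 (point 3), 30.3, 36.4, 38.7 (point 4), and 30.4, 37.9, 35.0 (point 5) FPKM. The PBS libraries had 26.3, 35.4, 34.5 (point 1), 34.2, 54.0, 44.6 (point 2), 47.7, 35.9, 45.7 (point 3), 54.4, 50.8, 76.4 (point 4), and 58.8, 69.3, 47.2 (point 5) FPKM. Every insulin library lay below every PBS library of its point at points 2 to 5, with overlap at point 1. The difference was -0.92 ± 0.20 at point 2 (limma, adjusted p = 0.0141), -0.72 at point 3 (0.0256), -0.75 at point 4 (0.016) and -0.73 at point 5 (0.0127). Without insulin replicate 1 the calls at points 3, 4 and 5 ended (limma, adjusted p = 0.128, 0.0832 and 0.0675). The difference was -0.68 ± 0.09 averaged over the points (adjusted p = 4.22e-06). Within PBS the level also differed among points (limma F test, adjusted p = 0.0341; 0.0621 and not called without replicate 2 of point 5), from 32.1 ± 5.02 FPKM at point 1 to 60.5 ± 13.9 FPKM at point 4 (SD, n = 3). Within insulin it ran from 22.7 ± 3.17 FPKM at point 2 to 35.1 ± 4.36 FPKM at point 4, which was not called (adjusted p = 0.0979). Without replicate 2 of PBS at point 5, the point 5 difference was -0.60 ± 0.22 and not called (limma, adjusted p = 0.0618).

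Gstp3 (chr19:4057477-4059569, minus strand), a pi-class gene at a low level, had the largest called difference of any member at a single point. Its FPKM under insulin was 4.27, 4.84, 2.96 (point 1), 3.84, 4.34, 4.47 (point 2), 4.21, 5.07, 5.36 (point 3), 1.83, 2.52, 5.08 (point 4), and 1.32, 4.66, 2.68 (point 5). Its FPKM under PBS was 4.71, 7.85, 6.22 (point 1), 3.87, 4.22, 5.55 (point 2), 4.73, 5.36, 7.81 (point 3), 5.58, 4.13, 7.08 (point 4), and 6.84, 11.2, 8.41 (point 5). At point 5 the highest insulin library lay below the lowest PBS library, and at the other points the groups overlapped. The difference at point 5 was -1.41 ± 0.28 (limma, adjusted p = 0.0018) and averaged -0.59 ± 0.12 over the points (adjusted p = 0.000534). Replicate 2 of PBS at point 5 was the highest of all 30 libraries, and without it the point 5 difference was -1.24 ± 0.31 (adjusted p = 0.0108).

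Gstm1 (chr3:108012255-108017973, minus strand) is the most abundant mu-class gene here. The insulin group measured 415, 449, 461 (point 1), 454, 393, 457 (point 2), 465, 462, 467 (point 3), 359.8, 389, 593 (point 4), and 277, 364, 303 (point 5). The PBS group measured 363, 553, 561 (point 1), 409, 433, 460.2 (point 2), 492, 517, 519 (point 3), 474, 382, 447 (point 4), and 412, 566, 540.5 (point 5). The groups were apart at points 3 and 5, insulin being lower, and at point 4 the highest library of the 6 was an insulin one. The difference was -0.68 ± 0.17 at point 5 (limma, adjusted p = 0.00751; 0.0356 without PBS replicate 2 and 0.0502 without insulin replicate 1) and -0.19 ± 0.07 averaged over the points (adjusted p = 0.0455).

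Gstm4 (chr3:108040408-108044894, minus strand) was called at point 5 as well. Libraries of the insulin group stood at 19.3, 23.4, 16.1 (point 1), 16.9, 16.4, 20.5 (point 2), 16.9, 12.5, 21.3 (point 3), 16.7, 11.4, 22.5 (point 4), and 13.7, 16.0, 17.3 (point 5). Libraries of the PBS group stood at 15.9, 17.9, 24.0 (point 1), 18.3, 23.5, 22.1 (point 2), 21.9, 17.4, 27.5 (point 3), 23.9, 17.5, 21.6 (point 4), and 20.2, 25.5, 30.8 (point 5). Only at point 5 did the groups not overlap, with insulin lower. The difference there was -0.65 ± 0.22 (limma, adjusted p = 0.04), and without PBS replicate 2 it was -0.64 ± 0.25 and not called (adjusted p = 0.0854), nor was it without insulin replicate 1 (0.149). That call ended under 9 of 14 alternatives, median-ratio scaling and quantile normalization among them. Averaged over the points the difference was -0.32 ± 0.10 (limma, adjusted p = 0.0117).

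Gstm5 (chr3:107895821-107898686, plus strand) had low values. With insulin they were 2.36, 3.61, 3.42 (point 1), 3.08, 3.23, 1.92 (point 2), 2.76, 3.05, 2.79 (point 3), 1.98, 1.57, 4.45 (point 4), and 2.57, 3.01, 2.00 (point 5). With PBS they were 2.97, 4.77, 3.57 (point 1), 5.44, 4.02, 3.36 (point 2), 4.35, 2.25, 4.65 (point 3), 2.19, 4.47, 3.27 (point 4), and 4.02, 3.60, 2.20 (point 5). The groups overlapped at every point but point 2, where the insulin libraries were lower. The averaged difference was -0.30 ± 0.12 (limma, adjusted p = 0.0404), and no single point was called.

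Gstz1, the maleylacetoacetate isomerase of tyrosine breakdown, was at 244, 266 and 242 FPKM in insulin and 318, 359 and 343 FPKM in PBS at point 5, without overlap (difference -0.44 ± 0.10, limma adjusted p = 0.00569; -0.40 and 0.0242 without PBS replicate 2). At point 4 it was at 225, 228 and 272 FPKM and 314, 287 and 297 FPKM, also without overlap (-0.31, limma adjusted p = 0.0466, and 0.176 without insulin replicate 1). That point 4 call ended under 9 of 14 alternatives, median-ratio scaling and quantile normalization among them. Gstk1, a kappa-class enzyme of mitochondria and peroxisomes, was at 63.0, 68.2 and 63.8 FPKM and 80.4, 93.2 and 74.0 FPKM at point 5 (-0.33, limma adjusted p = 0.0324), a call that ended without PBS replicate 2 (adjusted p = 0.153) or insulin replicate 1 (0.109). The Gstk1 call ended under 7 of 14 alternatives, median-ratio scaling and quantile normalization among them. In the average, Gsto1, an omega-class enzyme that reduces dehydroascorbate, differed by -0.24 (adjusted p = 0.00138) and Gstt1 by -0.29 (adjusted p = 0.00699), both with limma.

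**Figure D3:**
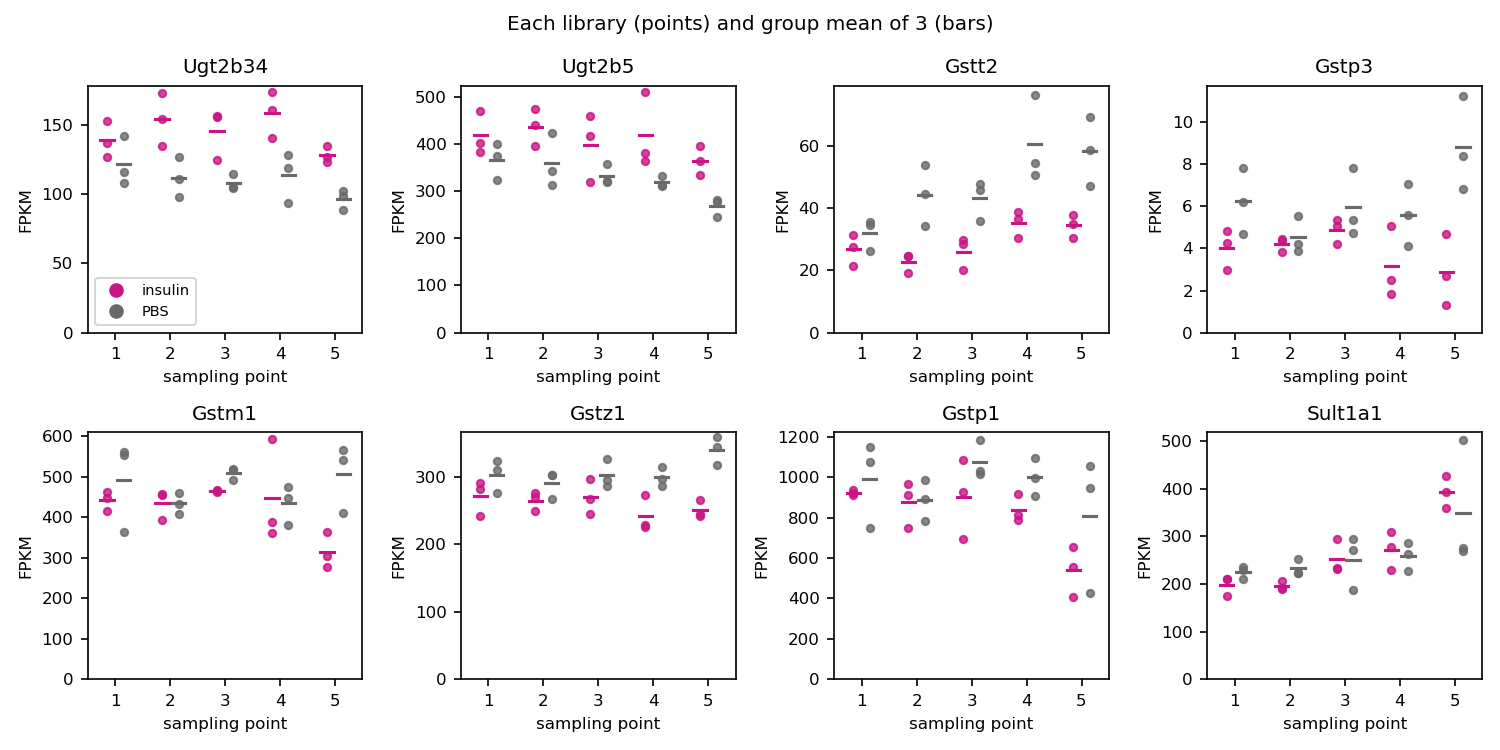
FPKM of 8 genes in each library (points) with the mean of 3 (bars), at the 5 sampling points for insulin and PBS; all axes start at 0. Gstt2 insulin libraries lie below PBS libraries at points 2 to 5 and Ugt2b34 insulin libraries above them; 1 PBS library at point 5 is at 426 FPKM for Gstp1 and 502 FPKM for Sult1a1, away from the other PBS libraries of that point.

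The other pi-class genes, Gstp1 and Gstp2, gave other calls without replicate 2 of PBS at point 5. Gstp1 at point 5 was at 405, 557 and 656 FPKM in insulin and 944, 426 and 1053 FPKM in PBS, so the groups overlapped through PBS replicate 2 alone. Gstp2 was at 190.5, 241 and 329 FPKM and 429, 184 and 481 FPKM. With all libraries the differences were -0.50 ± 0.24 and -0.44 ± 0.29 and not called (limma, adjusted p = 0.138 and 0.282). Without that library they were -0.91 ± 0.20 and -0.88 ± 0.26 and called (limma, adjusted p = 0.00451 and 0.0258). The genes lie side by side and 49.1% of the 50-base stretches of Gstp2 occur in Gstp1, so their split is uncertain; their sum at point 5 was 793 ± 194 FPKM in insulin and 1173 ± 494 FPKM in PBS (SD, n = 3), where PBS replicates 1 and 3 were at 1373 and 1534 FPKM.

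The alpha-class genes Gsta1 and Gsta2 also gave other calls without it, in the other direction. Gsta1 at point 5 was at 9.14, 10.7 and 7.55 FPKM in insulin and 5.01, 24.1 and 5.68 FPKM in PBS. With all libraries its difference was 0.00 ± 0.32 (limma, adjusted p = 0.996), and without PBS replicate 2 it was 0.67 ± 0.19 (adjusted p = 0.0215). For Gsta2 the values were 0.13 ± 0.29 (limma, adjusted p = 0.781) and 0.70 ± 0.20 (adjusted p = 0.0243). Of the 50-base stretches of Gsta1, 90.5% occur in other genes. Gsta3, the second most abundant member, was called at no point. Neither were Gsta4, Gstm2, Gstm3, Gstm7 and Gstt3, at mean levels of 10.5 to 33.4 FPKM, whose largest differences were between -0.45 (Gstm7, point 5, limma adjusted p = 0.103) and 0.37 (Gstm3, point 4, adjusted p = 0.297). After scaling by median ratio, Gsta4 was called higher at point 4.

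Without that library 9 members were called at point 5, as with it, against 14.6% of all genes. Of these, 4 were higher (Gsta1, Gsta2, Sult1a1 and Sult1e1), against 3.25% of all genes, and 5 lower (Gstm1, Gstp1, Gstp2, Gstp3 and Gstz1), against 11.3%. Gstm1, Gstp3 and Gstz1 were the only members called both ways. In the averaged contrast 21 were called without it, 11 higher and 10 lower, and the share of all genes in that fit was not counted. Gsta1, Gsta2 and Sult1e1 were then added as higher and Gstp1 and Gstp2 as lower, and Gstm1 and Gstm5 were lost.

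With all libraries and no scaling, the Sult genes had 2 calls, both in the average. Sult1d1 (chr5:87554645-87569027, minus strand), from the Ugt2 cluster, was at 69.2, 127, 80.8 (point 1), 79.4, 103, 92.2 (point 2), 71.9, 130.4, 96.1 (point 3), 99.6, 112, 102 (point 4), and 121, 129, 149 (point 5) FPKM in insulin. In PBS it was at 128, 77.6, 59.8 (point 1), 96.4, 59.5, 54.8 (point 2), 82.0, 83.7, 99.1 (point 3), 84.3, 73.3, 52.1 (point 4), and 77.0, 109, 86.3 (point 5) FPKM. The insulin libraries were above all PBS libraries at points 4 and 5 and overlapped with them elsewhere. The averaged difference was 0.36 ± 0.12 (limma, adjusted p = 0.0148), with 0.60 ± 0.26 at point 4 (adjusted p = 0.121) and 0.55 ± 0.26 at point 5 (adjusted p = 0.133). The averaged call ended under 4 of 13 alternatives (limma, adjusted p up to 0.124). After scaling by median ratio, Sult1d1 was called higher at point 5 as well.

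Sult5a1 (chr8:123140192-123158315, minus strand) was low and lower with insulin. It measured 1.09, 2.36, 1.28 (point 1), 1.37, 2.58, 1.01 (point 2), 0.641, 1.91, 1.09 (point 3), 1.44, 1.44, 1.37 (point 4), and 1.37, 0.643, 1.92 (point 5) FPKM in that group. The PBS values were 6.06, 1.99, 6.83 (point 1), 4.72, 2.62, 2.25 (point 2), 2.40, 3.26, 1.60 (point 3), 4.18, 1.98, 3.58 (point 4), and 2.17, 3.29, 1.57 (point 5) FPKM. At point 4 the groups did not overlap, and at the other points they did. The averaged difference was -0.75 ± 0.15 (limma, adjusted p = 0.000297), and the largest at a point was -1.12 ± 0.33 at point 1, which was not called (adjusted p = 0.526).

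Sult1e1, which inactivates estrogens, had no value in 16 of 30 libraries, set to 0 here. At point 5 it was at 3.87, 1.58 and 2.28 FPKM in insulin and 0.687, 2.84 and 0.00 FPKM in PBS, where the insulin libraries exceeded all but PBS replicate 2. The difference was 0.89 ± 0.44 with all libraries (limma, adjusted p = 0.15) and 1.41 ± 0.44 without that one (adjusted p = 0.0333). Sult2a7 and Sult1c2, at 1.00 and 0.772 FPKM on average and without a value in 9 and 2 libraries, were called at no point, nor was Sult1b1, at 14.7 FPKM.

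Sult1a1 was called among points and not between treatments. Its insulin means were 198 ± 21.3, 196 ± 9.26, 253 ± 35.7, 272 ± 39.9 and 393 ± 34.2 FPKM at points 1 to 5 (SD, n = 3; limma F test, adjusted p = 0.00194; 0.102 without the libraries of replicate 1). The PBS means were 224 ± 13.0, 233 ± 17.7, 251 ± 57.2, 259 ± 29.4 and 349 ± 133 FPKM, which was not called (adjusted p = 0.316). Point 5 was the highest in both groups. The 4 libraries with the highest Sult1a1, at 359 to 502 FPKM, were the 3 insulin libraries of point 5 and PBS replicate 2 of point 5, and these same 4 had the lowest Gstp1, at 405 to 656 FPKM. At point 5 the difference between treatments was 0.23 ± 0.19 with all libraries (limma, adjusted p = 0.4) and 0.52 ± 0.16 without PBS replicate 2 (adjusted p = 0.0333). Sult2a8 differed by 0.56 ± 0.22 at point 5 and was not called (limma, adjusted p = 0.0813). After scaling by median ratio it was called higher at point 5 and in the average.

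Across points, limma's F tests called 3 members within insulin (Gstm6, Sult1a1 and Ugt2b35), against 13.3% of all genes, and 2 within PBS (Gstt2 and Ugt2b35), against 3.27%. Gstm6 had insulin means of 28.6 ± 4.34 FPKM at point 1 and 16.8 ± 2.16 FPKM at point 5 (SD, n = 3; adjusted p = 0.0373). Without PBS replicate 2 of point 5, limma called 6 within insulin (those 3, Gstp1, Gstp2 and Sult1e1) and 3 within PBS (Gsta1, Gsta2 and Gstm6). Without the insulin libraries of replicate 1 it called Gstm6 within insulin and Gstt2 within PBS. No share of all genes is given for the F tests with libraries left out, so those counts have no background beside them. Whether the difference between insulin and PBS depends on the point was called for 0 members by limma, against 1.77% of all genes, and 3 had an unadjusted p below 0.05.

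The Ugt1a locus is 1 gene with alternative first exons: its members, among them Ugt1a1, the bilirubin enzyme, share 4 exon blocks of 132, 88, 220 and 871 bases between chr1:88215044 and chr1:88218997. These blocks make up 58.1% to 59.9% of the exonic bases of each of the 6 members. Single rows varied widely from library to library. Ugt1a2 ran from 0.570 to 23.0 FPKM (40.4-fold), Ugt1a10 from 2.30 to 41.1 (17.9-fold), Ugt1a5 from 4.19 to 54.4 (13.0-fold) and Ugt1a9 from 54.8 to 227 (4.15-fold). Ugt1a1 ran from 90.0 to 150.1 FPKM (1.67-fold). The sum of all 9 Ugt1a rows of the table, including Ugt1a6a, Ugt1a6b and Ugt1a7c, ran only from 375 to 532 FPKM (1.42-fold), so the total varied less than each of its rows. In PBS replicate 3 of point 4, Ugt1a8 was at 56.3 FPKM, while its median was 0.114 FPKM, and the Ugt1a9 row was the lowest of all libraries. No tested Ugt1a member was called at any point; the largest difference, -1.59 ± 0.71 for Ugt1a2 at point 5, had an adjusted p of 0.116 with limma.

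**Figure D4:**
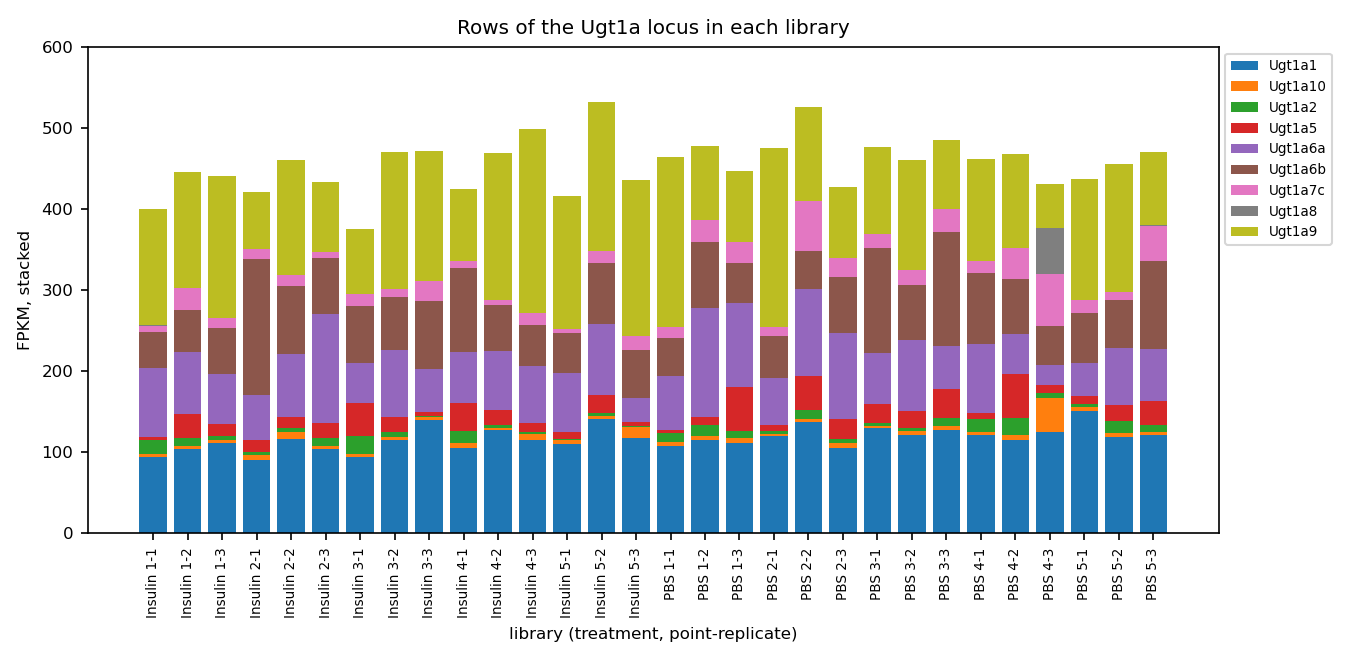
FPKM of the 9 rows of the Ugt1a locus, stacked, in each of the 30 libraries (x axis: treatment, point and replicate). Bar heights stay between 375 and 532 FPKM while the parts change; Ugt1a8 is visible as a broad band in 1 PBS library of point 4 at 56.3 FPKM.

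Genes around the conjugation step were taken from lists of pathway members, written with earlier results of these data known. Of 20 tested receptors and factors that regulate conjugation genes, 0, 2, 8, 5 and 5 fell at points 1 to 5 and 0 rose (limma). Of all genes, 0.736%, 7.26%, 10.4% and 16.1% were called lower at points 2 to 5. Without PBS replicate 2, 2 fell at point 5, against 11.3% of all genes. Without insulin replicate 1, 1, 7, 2 and 2 fell at points 2 to 5, against 0.265%, 3.35%, 3.35% and 6.28% of all genes. The median was -0.51 at point 3 against -0.14 for all genes. At point 3 Nr1i3, which encodes the xenobiotic sensor CAR, was at 48.9 ± 11.1 FPKM with insulin and 96.3 ± 7.37 with PBS (SD, n = 3; difference -0.99, limma adjusted p = 0.00218), and Ppara, a receptor for fatty acids, at 34.1 ± 8.32 and 63.8 ± 5.35 FPKM (-0.91, limma adjusted p = 0.000781). Rxra, the common partner of these receptors, was at 55.0 ± 8.00 and 92.6 ± 5.37 FPKM at point 5 (-0.75, limma adjusted p = 0.000888).

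Few readout genes of AHR, CAR, PXR and NRF2 passed the test at single points. Of 14 tested, 1 was called at point 2 (Tiparp, an AHR target, higher by 1.89 ± 0.43, limma adjusted p = 0.0224) and 1 at point 4 (Hmox1, an NRF2 target, higher by 1.24 ± 0.38, adjusted p = 0.0321). Of all genes, 0.618% and 2.82% were called higher at points 2 and 4. At points 1, 3 and 5 limma called 0 readout genes, against 0.00736%, 9.45% and 19.1% of all genes. It also called 0 at point 5 without PBS replicate 2 (14.6% of all genes). Without insulin replicate 1, 2 were called higher at point 3 (1.98% of all genes). Hmox1 had an SD of 37.0 FPKM around a mean of 39.2 FPKM in insulin (n = 3). The largest differences of Cyp3a11 (0.65 at point 4) and Alas1 (-0.89 at point 3) were not called (limma, adjusted p = 0.0699 and 0.0792). In the average over the points, limma called 2 of the 14 higher (Cyp3a11 and Tiparp) and 2 lower, Alas1 among them. Of all genes, 7.89% were called higher and 37.6% lower in that contrast.

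For cofactor supply, of 16 genes tested limma called 0 at points 1 and 2 and 1 lower at point 3. It called 2 higher and 1 lower at point 4, and 2 higher and 3 lower at point 5. Of all genes, 2.19%, 2.82% and 2.96% were higher and 7.26%, 10.4% and 16.1% lower at points 3, 4 and 5. The point 5 counts were the same without PBS replicate 2, against 3.25% of all genes higher and 11.3% lower. Without insulin replicate 1 the counts were 1 higher and 1 lower at point 3, against 1.98% and 3.35% of all genes. At point 5 they were then 2 higher and 2 lower, against 1.96% and 6.28%. Ugdh, which makes UDP-glucuronate for the Ugt enzymes, was at 71.7 ± 6.80 FPKM with insulin and 48.5 ± 7.72 with PBS at point 4 (0.56, limma adjusted p = 0.0077). Genes of sulfate supply called lower were the sulfate transporter Slc26a1 at point 3 (-0.74, adjusted p = 0.00524), the PAPS transporter Slc35b2 at point 5 (-0.71, adjusted p = 0.00664) and the PAPS synthase Papss1 at point 5 (-0.50, adjusted p = 0.00863; 0.0585 without insulin replicate 1), all with limma.

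Of 17 other conjugating enzymes tested, 2, 2 and 3 fell at points 3, 4 and 5 and 0 rose at any point (limma), against 7.26%, 10.4% and 16.1% of all genes lower and 2.19%, 2.82% and 2.96% higher. With PBS replicate 2 left out, 1 fell at point 5, against 11.3% of all genes. Without insulin replicate 1, 1 fell at each of points 3, 4 and 5, against 3.35%, 3.35% and 6.28% of all genes. Nat2, an arylamine acetyltransferase, fell at point 3 (-0.77, limma adjusted p = 0.00558), Gnmt, a glycine methyltransferase, at point 5 (-0.63, adjusted p = 0.0206; 0.0747 without PBS replicate 2 and 0.0966 without insulin replicate 1) and Acsm1, a medium-chain acyl-CoA synthetase, at point 4 (-0.43, adjusted p = 0.0313; 0.121 without insulin replicate 1). Of 4 tested transferases outside the symbol rule, 1 was called at any point: Mgst3 at point 5 (-0.97, limma adjusted p = 0.0354; 0.182 without PBS replicate 2). Ptges2 (-0.80 at point 2), Gstcd (-0.21 at point 4) and Mgst1 (-0.12 at point 3) were not called at these points, where each had its smallest adjusted p (limma, 0.151, 0.382 and 0.567).

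Transporters of conjugates numbered 11 tested, of which 3 fell at point 3, 2 fell and 1 rose at point 4, and 2 fell at point 5 (limma), beside the same shares of all genes. Leaving out PBS replicate 2, 4 fell at point 5, against 11.3% of all genes. Without insulin replicate 1, 1, 1 and 2 fell and 0 rose at points 3, 4 and 5. In that fit 3.35%, 3.35% and 6.28% of all genes were lower and 1.98%, 1.92% and 1.96% higher. Slco2b1, an uptake carrier, was at 28.8 ± 1.91 FPKM with insulin and 44.1 ± 1.71 with PBS at point 5 (-0.60, limma adjusted p = 0.00119). Abcc6 fell at point 5 (-0.76, limma adjusted p = 0.00359) and Abcc3, the exporter to blood, at point 3 (-0.44, adjusted p = 0.0359; 0.147 without insulin replicate 1). Abcc2, the exporter to bile, rose at point 4 (0.36, limma adjusted p = 0.0485; 0.0602 without insulin replicate 1). Of 10 tested genes of deconjugation and mercapturate handling, 3, 2 and 3 fell and 1 rose at points 3, 4 and 5. Of all genes, 7.26%, 10.4% and 16.1% were lower and 2.19%, 2.82% and 2.96% higher at these points. Without PBS replicate 2, 2 fell and 0 rose at point 5, against 11.3% of all genes lower and 3.25% higher. Without insulin replicate 1, 1, 2 and 1 fell and 1, 1 and 0 rose, beside the shares given for that fit with the transporters. The gene that rose was Gusb, the lysosomal glucuronidase, at 18.7 ± 4.67 FPKM with insulin and 10.5 ± 1.75 with PBS at point 4 (0.77, limma adjusted p = 0.00983). Acy3, which deacetylates mercapturates, fell by 1.18 on the log2 scale at point 5 (limma, adjusted p = 0.000823), Acy1 by 0.64 (adjusted p = 0.0179; 0.0697 without PBS replicate 2 and 0.0504 without insulin replicate 1) and Anpep, an aminopeptidase, by 0.56 (adjusted p = 0.00862; 0.0549 without insulin replicate 1).

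Markers of cells and zones were counted in the averaged contrast, where 37.6% of all genes were lower and 7.89% higher. Limma called 5 of 8 pericentral and 6 of 8 periportal hepatocyte genes lower, 5 of 6 sinusoidal endothelial, 3 of 6 stellate and 2 of 6 Kupffer cell genes lower, and 3 of 4 sex-linked genes higher. Without the insulin libraries of replicate 1 these counts were 2, 5, 2, 2, 1 and 2, against 26.5% of all genes lower and 9.9% higher. At point 5 the summed endothelial level was 37.5 to 49.0 FPKM in insulin and 54.9 to 59.4 FPKM in PBS, and the Kupffer sum was 48.3 to 72.9 FPKM and 63.2 to 81.0 FPKM. Their part in the differences of the conjugation enzymes was not tested.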

How the data were processed

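Poly(A) RNA of left liver lobe was sequenced in 30 libraries, 3 per treatment and point, grouped by their titles. FPKM values per gene were deposited; the tools were HISAT2 2.1.0, SAMtools 1.9 and StringTie 2.0.3 and the build GRCm38 (mm10), per the submitters' processing notes. Annotation and strand setting: not given in the sources used here. How reads of close copies were divided is not stated. Of all cells, 32.2% held no value and were set to 0, which touched 893 tested genes, 3 of them members. Read depth is unknown, and no count test was run.

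The test took the 13589 genes that 3 libraries or more held at 1 FPKM. Values were fitted as log2(FPKM + 1), a scale that understates changes of low genes, with limma 3.58.1 in R 4.3.3, one mean per group and a variance trend (residual degrees of freedom: 20). Tests were two-sided, adjusted by Benjamini-Hochberg over all genes at 0.05. The function was tested on simulated data. The series is described as biological triplicates. Alternatives were median-ratio and quantile scaling, 0.1 as pseudocount, a mean of at least 5 FPKM or nothing in place of the filter, lane as a random effect, the replicate number as a block, only the 6 libraries of a point, and each replicate left out in turn.

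Named were members that passed any comparison, with values in every library for the 12 with the largest differences at a mean of 1 FPKM or more, the 3 most abundant per family, members that passed an F test with a wide range, and up to 4 genes per pathway list with the smallest adjusted p. Some of the genes and motifs this covers are not reported here. Gsta1, Gsta2, Gstp2, Ugt1a genes and Sult1e1 were added after their values were seen. The members and lists were chosen with earlier results of these data known. Positions and 50-base stretches came from GENCODE M21, which held all 52 members, and promoters from RefSeq on GRCm38.p6. Same-numbered insulin and PBS libraries correlated at -0.111 to 0.122 in their deviations from group means, with 1 of 15 pairs over 0.1, so the numbers were not taken to pair the samples. Within the insulin arm, libraries of replicate 1 correlated across points (median 0.216). Leaving these out for lists and named list genes, and PBS replicate 2 of point 5 for those and for separation, was chosen after seeing the data.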

Additional observations from a re-analysis of the deposited data

Results flagged for a closer look

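For 2 alpha-class genes, all insulin libraries lay on one side of the PBS libraries at some points and on the other side at another. Gsta1 was above PBS at point 3 (0.33) and point 4 (0.52) and below it at point 1 (-0.46), on the log2(FPKM + 1) scale. Of all genes, 7.65% and 8.01% were above PBS at points 3 and 4 and 6.44% below it at point 1. Gsta3 was above PBS at point 2 (0.42) and below it at point 5 (-0.46), where 4.86% of all genes were above at point 2 and 29% below at point 5. None of these differences was called at its point, and limma's F test of whether the difference depends on the point did not call either gene (adjusted p = 0.759 for Gsta1 and 0.383 for Gsta3). Without PBS replicate 2 of point 5, the same limma F test gave adjusted p = 0.0634 for Gsta1 and 0.467 for Gsta3, again not called. What sets the points apart was not tested.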

How the results depend on the processing

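Of 34 calls of named members at the points and in their mean, 9 held under every alternative run: Gstp3 at point 5 and in the mean, and Gstt2, Gstz1, Sult5a1, Ugt2b5, Ugt2b34, Ugt2b35 and Ugt2b38 in the mean. Over the 456 alternatives of those calls, 334 kept the call, 120 ended it and 2 turned its sign, and 43 calls were gained elsewhere. Both reversals were the mean difference of Gstk1, at 0.01209 (median-ratio scaling) and 0.01058 (quantile normalization). Counts of members at points 2, 3, 4 and 5 (1, 2, 4 and 9) were 2, 4, 9 and 14 with median-ratio scaling. That scaling called 1.52%, 8.67%, 12.8% and 16.8% of all genes at these points. The member counts were 0, 0, 0 and 2 in a fit of only the 6 libraries of the point. With quantile normalization they were 2, 4 and 8 at points 2, 3 and 4. Without the filter, points 3 and 5 gave 1 and 5. The F test within insulin (3 members) gave 1 without the filter and 5 with quantile normalization, and that within PBS (2 members) gave 0 without the filter and 4 with either scaling. No share of all genes is given for the quantile, unfiltered and F test counts, so they cannot be set against a background here.

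With the replicate number as a block, 4 members were called at point 3 and 4 in the F test within PBS, and all genes called were 5, 450 and 1957 at points 1, 2 and 3, against 1, 184 and 1284. All genes at point 1 were 2 with median-ratio scaling, 3 without the filter or with a pseudocount of 0.1, 4 with quantile normalization and 0 with only 6 libraries, which gave 62, 101 and 1115 at points 2, 4 and 5. Point 3 gave 810 without the filter. Leaving out a replicate gave 0 to 2, 0 to 1, 0 to 5 and 2 to 9 members at points 2 to 5, 11 to 20 in the mean, 1 to 3 within insulin and 0 to 1 within PBS. Over all genes it gave 0 to 62, 84 to 456, 583 to 845, 635 to 2396 and 1121 to 2545 at points 1 to 5. No share of all genes is given beside the ranges for the mean and the F tests. The causes were not tested, other than that fewer libraries leave fewer degrees of freedom. Leaving out PBS replicate 2 of point 5 alone was chosen after seeing the data for the mean and the F tests. These then called, with no share of all genes counted, 21 members in the mean, 0 for dependence on the point, 6 within insulin and 3 within PBS. Of the members within PBS with all libraries, neither Gstt2 nor Ugt2b35 was among these 3 (Gsta1, Gsta2 and Gstm6). Among 10 named list genes at point 5, 3 calls ended without that library, and among 28 in all, 7 ended without insulin replicate 1.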
